A study of Mus musculus with 18 samples.

Results

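The interleukin receptor genes were taken as the protein-coding genes of GENCODE vM21 whose symbol starts with Il, then digits, then r, which gave 41 of 21938 genes. Their chromatin was compared between erythroblasts (ERY) and immature megakaryocytes (iMK) sorted from the bone marrow of adult C57BL6 mice, male by the study's methods, with no treatment named in the labels. The 2 histone marks H3K27ac and H3K4me3 were mapped by chromatin immunoprecipitation (ChIP-seq), with 2 libraries for each mark and cell type, 8 in all. H3K27ac marks active promoters and enhancers, and H3K4me3 marks mainly promoters. Both sorted populations were negative for the lymphoid and myeloid surface antigens CD45R, Ly6g, CD11b, CD8, CD4 and IL7Ra. ERY were Ter119+ and CD44+ with low forward scatter, whereas iMK were CD41+ and CD61+ and lacked cKit, Sca1 and Ter119. The replicate numbers used here follow the order of submission and do not link libraries across marks or cell types.

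Interleukin receptors are built from a chain that binds a given cytokine and, in most families, a second chain shared among several cytokines, and together they start signalling through JAK kinases and STAT factors or, for the IL-1 and IL-17 families, through adaptor proteins. Blood cells differ in the receptors they carry, and this sets which interleukins they answer. The symbol rule also brought in genes that are no signalling receptor: Il1rn is a secreted antagonist of IL-1, Il22ra2 is a soluble protein that binds IL-22, and Il1r2 and Il13ra2 encode decoy receptors. By family the members were 10 of the common gamma chain and IL-4/IL-13 group, 2 partners of the common beta chain, 8 of the gp130 and IL-12 group, 6 class II receptors of the IL-10 family, 10 of the IL-1 receptor family and 5 IL-17 receptors.

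A promoter counted as called where any peak of a library came within 1 kb of 1 of the gene's transcription start sites (TSS). Promoters called in the pair of ERY libraries and in no iMK library are termed ERY-only, those with the reverse pattern iMK-only, and those called in all 4 shared. Promoter sequences are given for 3 of the members at which H3K27ac promoter calls separated the cell types. They were taken by the size of the H3K27ac difference and with little annotated exon in the window. These are the ERY-only Il1r1 and Il1rl1, at both start sites listed for each, and the iMK-only Il6ra. A call needs a peak within 1 kb of a start, so a sequence need not lie under a peak. Each sequence is the 250 bases before the start, 5′ to 3′ on the gene's strand, from RefSeq on GRCm38.p6. Capitals mark matches on either strand to the GATA motifs AGATAA and TGATAA, the ETS motif GGAAGT, the PU.1 motif GAGGAA and the RUNX motif TGTGGT. The Il1r1 sequences lie at chr1:40224830-40225079 and chr1:40266336-40266585, the Il1rl1 sequences at chr1:40429320-40429569 and chr1:40439379-40439628, all on the plus strand, and the Il6ra sequence at chr3:89913197-89913446 on the minus strand. The second Il1r1 sequence lies outside the H3K27ac peaks of both ERY libraries. The second Il1rl1 sequence lies under a peak in ERY replicate 1 alone.
Il1r1, first start: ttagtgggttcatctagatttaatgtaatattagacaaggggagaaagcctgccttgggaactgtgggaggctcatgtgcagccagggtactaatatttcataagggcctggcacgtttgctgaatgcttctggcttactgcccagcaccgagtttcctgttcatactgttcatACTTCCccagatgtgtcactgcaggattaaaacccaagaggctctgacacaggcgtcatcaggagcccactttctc
Il1r1, second start: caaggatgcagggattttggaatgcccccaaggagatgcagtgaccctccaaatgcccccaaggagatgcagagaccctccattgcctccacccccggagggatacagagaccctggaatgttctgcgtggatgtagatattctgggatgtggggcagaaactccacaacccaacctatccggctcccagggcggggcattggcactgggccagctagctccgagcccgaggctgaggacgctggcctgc
Il1rl1, first start: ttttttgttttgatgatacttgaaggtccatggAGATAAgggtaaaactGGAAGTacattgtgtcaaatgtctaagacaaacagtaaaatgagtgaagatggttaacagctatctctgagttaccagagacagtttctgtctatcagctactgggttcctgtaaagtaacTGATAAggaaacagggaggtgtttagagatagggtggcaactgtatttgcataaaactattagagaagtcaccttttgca
Il1rl1, second start: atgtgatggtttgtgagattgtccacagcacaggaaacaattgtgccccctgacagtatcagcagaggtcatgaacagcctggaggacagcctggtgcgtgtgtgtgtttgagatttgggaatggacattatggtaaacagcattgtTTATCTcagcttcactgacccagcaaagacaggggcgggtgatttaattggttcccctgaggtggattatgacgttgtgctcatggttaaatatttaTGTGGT
Il6ra: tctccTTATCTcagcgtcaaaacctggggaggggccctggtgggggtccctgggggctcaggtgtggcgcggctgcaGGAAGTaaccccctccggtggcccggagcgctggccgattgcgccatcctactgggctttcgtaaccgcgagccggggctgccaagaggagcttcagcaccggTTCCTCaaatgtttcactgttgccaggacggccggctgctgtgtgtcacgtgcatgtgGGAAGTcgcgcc

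The first Il1rl1 start had 1 AGATAA match, 1 TGATAA match and 1 GGAAGT match, and no CpG dinucleotide in 250 bases. The second Il1rl1 start had 1 AGATAA and 1 TGTGGT match, and its ratio of observed to expected CpG was 0.239. Neither start of Il1r1 held a GATA match. Il6ra had 1 AGATAA, 2 GGAAGT and 1 GAGGAA match, with a CpG ratio of 0.682. Among 20150 promoters of the same length in the RefSeq table, 8.62% held AGATAA, 6.62% TGATAA, 20.8% GGAAGT, 22.5% GAGGAA and 12.1% TGTGGT. Of 41 members 34 had at least 1 sequence, and Il10ra, Il10rb, Il12rb1, Il17ra, Il22ra2, Il27ra and Il2rb had none. Taking the highest CpG ratio of each gene, the 9 iMK-only members with a sequence ranged from 0.306 to 0.865 (median 0.682), the 15 members with no H3K27ac promoter call from 0.058 to 0.627 (median 0.278), and the median over all genes was 0.594. The matches are letters in a window and show no binding.

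Peak lists differed in length between libraries, which bears on every count below. H3K27ac lists held 21768 to 25750 peaks, and mean peak width was 2980.5 to 2992.2 bp in ERY and 1872.5 to 2146.6 bp in iMK. H3K4me3 lists held 6275 to 13222 peaks, with iMK replicate 2 the longest and covering 33.837 Mb against 9.022 to 15.966 Mb in the other 3 libraries. Neutrophil and monocyte marker genes carried H3K27ac in the libraries labelled iMK: 0, 0, 9 and 10 of 12 promoters were called in ERY replicates 1 and 2 and iMK replicates 1 and 2, and their summed locus coverage was 20.0, 8.94, 257 and 421%. Of 10 megakaryocyte markers 8 were tested, 3 were higher in ERY and 1 was higher in iMK. Their promoters were called in 3 and 3 cases in ERY and 1 and 2 in iMK. Their summed H3K27ac coverage was 124 and 110% in ERY and 19.5 and 31.7% in iMK. Among them Itga2b, which encodes the CD41 of the sort, had H3K27ac over 16.8 and 3.80% of its locus in ERY. It had 0% in both libraries labelled iMK, and Pf4 and Gp6 were at 0 in all 4. All 10 erythroid markers had higher H3K27ac coverage in ERY. Many interleukin receptors are also used by myeloid cells, and the part of such cells in the results below was not tested. A peak carried by some of the sorted cells cannot be told apart from one carried by all.

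Promoters of interleukin receptor genes were called for H3K27ac in 7 of 41 members in each ERY library, 17.1%, where all genes gave 41.7 and 39.4%. In the libraries labelled iMK 16 and 20 members were called, 39.0 and 48.8%, where all genes gave 47.6 and 49.0%. ERY-only promoters were found at 2 members, Il1r1 and Il1rl1, against 2.17% of all genes. iMK-only promoters were found at 10 members, namely Il1r2, Il18rap, Il1rn, Il10ra, Il3ra, Il4ra, Il13ra1, Il6ra, Il12rb2 and Il17rb, which is 24.4% of members against 8.56% of all genes. Shared promoters were found at 5 members, 12.2% against 36.0% of all genes, and of these Il1rap, Il10rb and Il17ra encode chains that several cytokines use, while Il1rl2 encodes the receptor for IL-36 and Il15ra that for IL-15. The other 24 members were called without replication (6) or in no library (18). Leaving out any 1 library kept the ERY-only count at 2 and the shared count at 5, and moved the iMK-only count between 10 and 15.

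**Figure D1:**
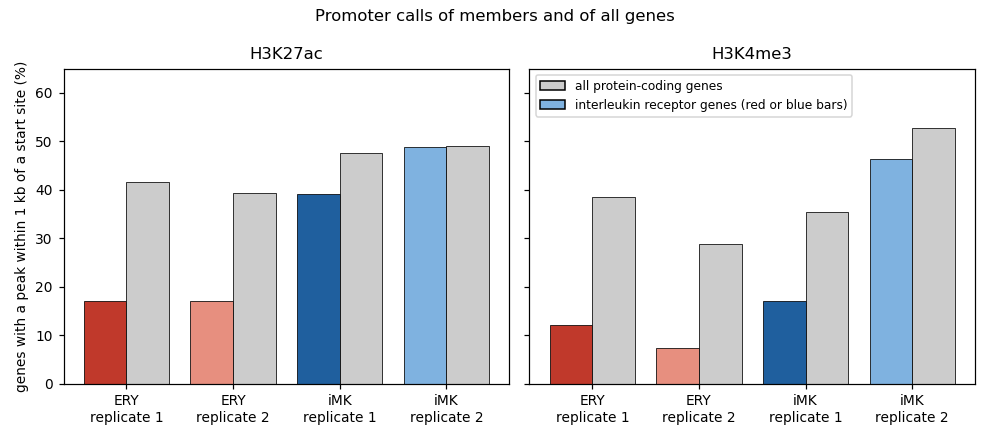
Percent of genes with a peak within 1 kb of a start site, for the 41 interleukin receptor genes (red or blue bars) and all 21938 protein-coding genes (grey bars), in each library of both marks. For H3K27ac the members stood at 17.1% in both ERY libraries, where all genes stood at 41.7 and 39.4%, and at 39.0 and 48.8% in the libraries labelled iMK, where all genes stood at 47.6 and 49.0%.

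Locus coverage, the percent of the gene body plus 10 kb on each side that lay under H3K27ac peaks, was above 0 in at least 1 library for 31 of the 41 members, and these were tested with limma over all 14467 genes so covered. Coverage was higher in ERY for 4 members, Il1r1, Il1rl1, Il10rb and Il22ra1, beside 22.0% of all genes, and higher in the libraries labelled iMK for 7, Il10ra, Il3ra, Il6ra, Il22ra2, Il21r, Il17rb and Il13ra1, beside 17.2% of all genes. The other 20 did not pass. Apart from Il6ra, the 7 had 0% in both ERY libraries, and Il22ra1 had 0% in both iMK libraries. Such members met the coverage filter only through the cell type in which they were higher, and the other cell type added no spread. The median difference over the 31, ERY minus iMK, was -2.58 percentage points, where it was 0.599 over all genes tested. Leaving out a library leaves 1 library in a group, with no spread measured there, so only differences are given here for such fits. They ran from 19.3 to 21.3 for Il1r1, 16.3 to 19.2 for Il1rl1, 30.2 to 43.8 for Il10rb and 8.19 to 11.8 for Il22ra1. The 7 members higher in iMK kept their sign, with -48.7 to -45.9 for Il10ra and -14.0 to -12.3 for Il6ra. How far the calls rest on single libraries cannot be told from 2 libraries a group.

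**Figure D2:**
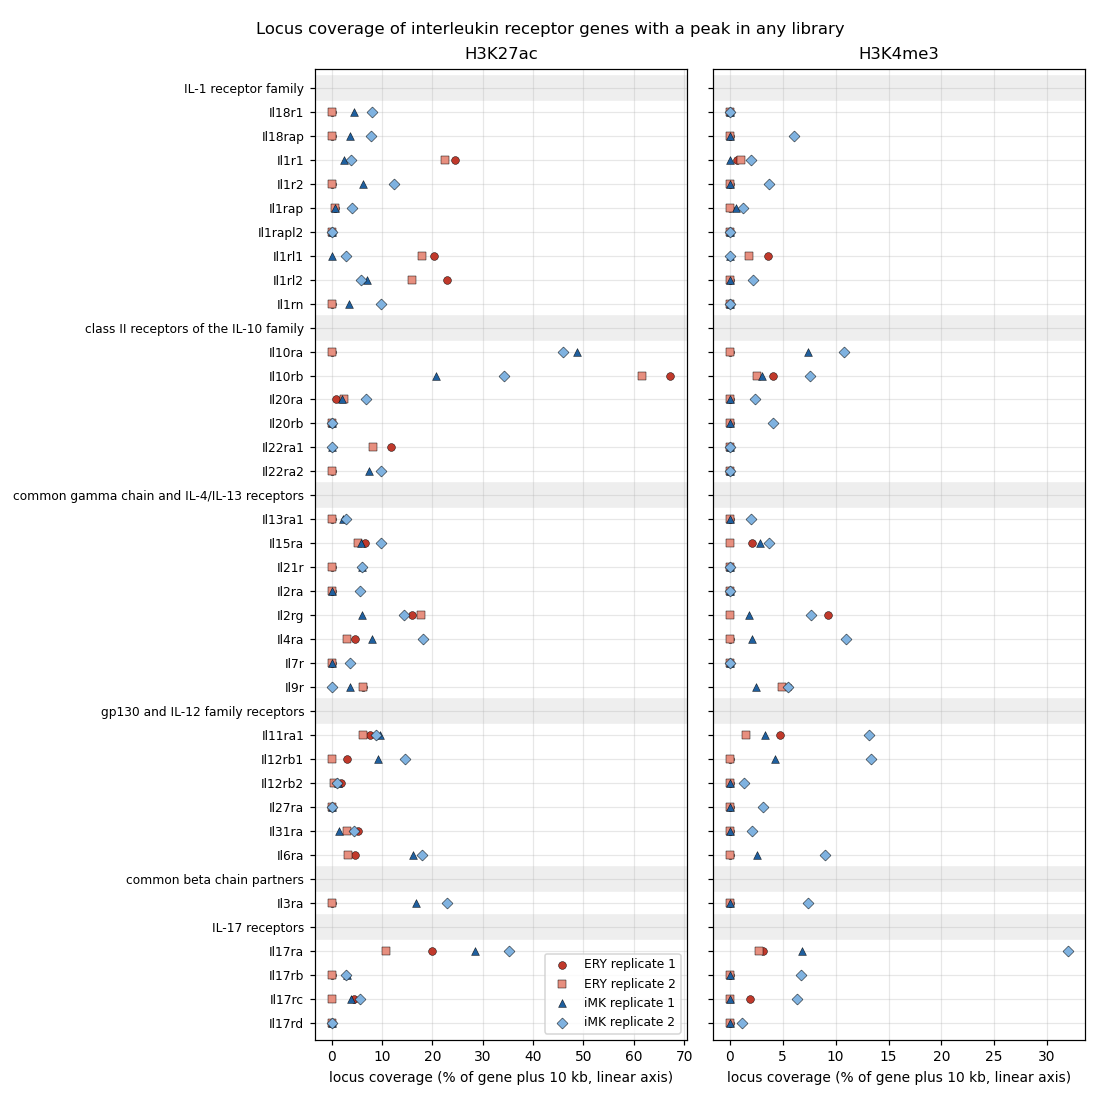
Locus coverage in percent of the gene plus 10 kb (linear axis) for every interleukin receptor gene with a peak in any library, by family, for H3K27ac (left) and H3K4me3 (right), with 1 point per library (red, ERY; blue, iMK). Il10rb at 67.2 and 61.7% in ERY and Il10ra at 48.7 and 45.9% in iMK had the highest H3K27ac values of each cell type.

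A row of 6 IL-1 family receptor genes lies on chromosome 1, and 2 of them, Il1r1 and Il1rl1, passed the H3K27ac test. The middle genes Il1r1, Il1rl2 and Il1rl1 had more coverage in both ERY libraries than in either library labelled iMK, and the outer genes Il1r2, Il18r1 and Il18rap had no peak in ERY. Il1r1, the receptor through which IL-1 signals, was covered over 24.4 and 22.5% in ERY and 2.5 and 3.74% in iMK. Both ERY libraries were far above both iMK libraries, by 20.3 ± 1.42 percentage points (SE), adjusted p = 0.00731 by limma. Its ERY-only regions lay over the first start (-1679 to 1920 bp from the 5′ end), just inside the gene (2521 to 8520 bp), over the second start (41521 to 47520 bp) and deeper in the gene (73721 to 79520 bp). Before the last lay iMK peaks within 68921 to 71320 bp and ERY peaks within 71121 to 73720 bp, which met and were joined as 1 region, although no position in it was covered in all 4 libraries. H3K4me3 touched the second start in ERY replicate 1 and iMK replicate 2 and the first start in no library.

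Il1rl1 encodes ST2, the receptor for IL-33. H3K27ac covered 20.4 and 17.9% of its locus in ERY, 0% in iMK replicate 1 and 2.87% in iMK replicate 2, and the groups did not overlap. The difference was 17.7 ± 1.77 percentage points (limma adjusted p = 0.0112), and it ran from 16.3 to 19.2 with a library left out. It did not pass with 50 kb on each side of the gene. In both ERY libraries a single peak of 7000 bp spanned the first start, with folds over control of 5.14 and 4.39, and a second ERY-only region ran from 6431 to 10430 bp, over the start at 7019 bp in both ERY libraries and those at 10057 and 10206 bp in ERY replicate 1. H3K4me3 was at the first start alone, with 3.58 and 1.79% of the locus covered in ERY and 0% in both iMK libraries. Il1rl1 was the 1 member with an ERY-only H3K4me3 promoter, a class that held 0.378% of all genes. Markers of mast cells, basophils and eosinophils, which are known to use ST2, had no H3K27ac or H3K4me3 promoter call in ERY, and 5 of these 8 genes had no H3K27ac peak in any library, with a summed H3K27ac coverage of the list of 12.2, 0, 0 and 1.18%. Their part in the result was not tested.

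Il1rl2 was marked at its promoter by H3K27ac in all 4 libraries. Its coverage was 22.9 and 15.9% in ERY against 6.99 and 5.72% in iMK, without overlap, and the difference of 13.0 ± 3.01 percentage points stood at the threshold (adjusted p = 0.051, limma). At the promoter the peaks were wider in ERY (2600 and 3200 bp) than in iMK (1400 and 1000 bp), while their folds over control were lower (4.42 and 3.38 against 5.51 and 7.73). Its locus shares 1 region with that of Il1r1, whose 3′ end is 7352 bp away, so both genes count that peak.

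The outer genes of the row were marked in the libraries labelled iMK. Il1r2, the decoy receptor for IL-1, had 0, 0, 6.18 and 12.4% coverage in ERY replicates 1 and 2 and iMK replicates 1 and 2, with peaks at its downstream start sites 10619 to 11906 bp from the 5′ end and not at the first. Il18rap, the accessory chain of the IL-18 receptor, had 0, 0, 3.55 and 7.81%, and Il18r1, the chain that binds IL-18, had 0, 0, 4.34 and 7.96%. None of the 3 passed the test, with adjusted p of 0.0683, 0.0853 and 0.0542 by limma. The Il18r1 region present in both iMK libraries began 34849 bp from its 5′ end, and its locus overlaps those of Il1rl1 and Il18rap.

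**Figure D3:**
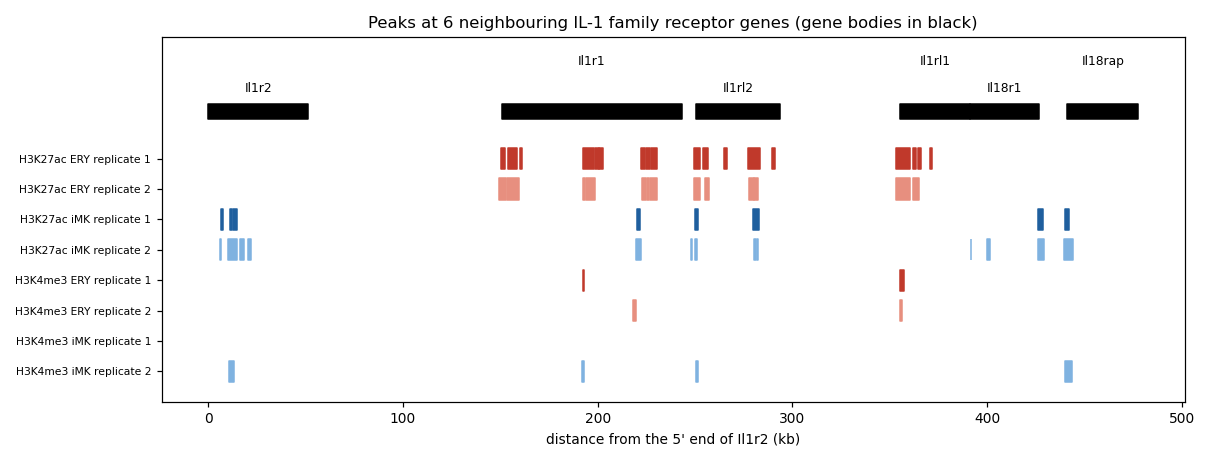
Peaks of both marks in each library (rows) along 6 neighbouring IL-1 family receptor genes, by distance from the 5′ end of Il1r2 in kb, with gene bodies in black. H3K27ac peaks of ERY (red) lie over Il1r1, Il1rl2 and Il1rl1, whose coverage in ERY was 24.4, 22.9 and 20.4% in replicate 1, and those of iMK (blue) lie over Il1r2, Il18r1 and Il18rap, with a few at Il1r1 and Il1rl2.

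Other members of the IL-1 family lie elsewhere. Il1rap, the accessory chain shared by the IL-1, IL-33 and IL-36 receptors, had its promoter called for H3K27ac in all 4 libraries, with widths of 1200, 1200, 1200 and 1400 bp and folds of 4.13, 1.67, 8.23 and 6.93. Its H3K4me3 promoter was iMK-only, with 0.594 and 1.19% of the locus covered in iMK. Il1rn, the antagonist, had H3K27ac over 0, 0, 3.46 and 9.81% of its locus, at start sites about 8435 to 8495 bp inside the gene, and no H3K4me3. The difference for Il1rn did not pass (adjusted p = 0.132, limma). Il1rapl1 had no peak, and Il1rapl2 was covered over 0.0309% in each iMK library, with no ERY peak.

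The IL-10 family held the members with the largest difference of each direction. Il10ra, the chain that binds IL-10, had no H3K27ac peak in either ERY library and coverage of 48.7 and 45.9% in the libraries labelled iMK. The difference was -47.3 ± 1.96 percentage points (adjusted p = 0.0065, limma), and it passed in every alternative that kept all libraries. The promoter peaks were 4600 and 4000 bp wide with folds of 12.5 and 11, and further iMK-only regions lay upstream (-7251 to -4452 and -3451 to -1652 bp) and past the 3′ end (15749 to 24148 bp). H3K4me3 was iMK-only too, at 0, 0, 7.36 and 10.8%, with a difference of -9.06 ± 3.41 percentage points (limma adjusted p = 0.772).

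Il10rb encodes the second chain of the IL-10 receptor, which other cytokines of the family also use, and its promoter was shared in both marks. H3K27ac covered 67.2 and 61.7% of the locus in ERY and 20.7 and 34.3% in iMK, a difference of 37.0 ± 6.23 percentage points (adjusted p = 0.0275, limma), so the chains of 1 receptor differed in opposite directions. ERY-only regions lay at the 3′ part of the gene and beyond it (16637 to 23436, 26437 to 28036 and 28637 to 38436 bp from the 5′ end). At the promoter itself the folds over control were 3.92 and 4.08 in ERY and 19.1 and 8.29 in iMK. H3K4me3 covered 4.03, 2.52, 3.02 and 7.56%. The H3K27ac call for Il10rb was lost under quantile normalization, with no filter on coverage and with peaks of q at most 1e-05. The difference stayed between 10.5 and 50 over all alternatives, and between 30.2 and 43.8 with a library left out. The locus also holds Ifnar2 and Gm21970.

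The receptor chains for IL-22 and IL-20 had regions away from their starts. Il22ra1, the signalling chain for IL-22, had 11.8 and 8.19% in ERY and 0% in iMK, from 1 region inside the gene 8829 to 14028 bp from the 5′ end (difference 10 ± 1.52 percentage points, adjusted p = 0.0227, limma). The call for Il22ra1 was lost with 50 kb on each side of the gene and with no filter on coverage. Its difference ran from 0.645 to 18.4 over all alternatives. Il22ra2, the soluble IL-22 binding protein, had 0% in ERY and 7.34 and 9.79% in iMK, from 1 region upstream of the gene, at -9797 to -6598 bp from the 5′ end (-8.57 ± 1.06, adjusted p = 0.0158, limma). Neither gene had a promoter call or any H3K4me3. Il20ra had 0.889, 2.37, 2.07 and 6.82% and did not pass. Il20rb had no H3K27ac, and its H3K4me3 coverage was 4.08% in iMK replicate 2 and 0% elsewhere.

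In the common gamma chain and IL-4/IL-13 group the calls lay on the iMK side. Il4ra, which binds IL-4 and takes part in both IL-4 and IL-13 receptors, was iMK-only at its promoter in both marks, with folds of 10.9 and 9.02 for H3K27ac. Its H3K27ac coverage was 4.65 and 2.96% in ERY and 8.02 and 18.2% in iMK, without overlap, and the difference of -9.29 ± 4.15 percentage points did not pass (adjusted p = 0.173, limma). H3K4me3 at Il4ra was 0, 0, 2.11 and 11%. Il13ra1, the other chain of that receptor, had 0, 0, 2.27 and 2.89% (-2.58 ± 0.296, limma adjusted p = 0.0139) with narrow promoter peaks of 600 and 800 bp. Il21r, the IL-21 receptor, had 5.98% in each iMK library and 0% in ERY (-5.98 ± 0.289, limma adjusted p = 0.0065), with no promoter call in any library. Regions of both iMK libraries lay at -6828 to -5829 and 26172 to 28571 bp from the 5′ end. A further peak of 800 bp, at 10172 to 10971 bp, was in iMK replicate 2 alone. The equal percentages of the iMK libraries thus came from different sets of peaks.

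Il15ra, which presents IL-15 to other cells, had a shared promoter with peaks of 1400 to 1800 bp and coverage of 6.53, 5.30, 5.71 and 9.79% (adjusted p = 0.456, limma). Il7r encodes an antigen used to exclude cells in both sorts. It had no H3K27ac peak in ERY or in iMK replicate 1 and a single peak of 1600 bp at its promoter in iMK replicate 2, which covered 3.60% of the locus, and no H3K4me3 peak in any library. Il2ra was covered in iMK replicate 2 alone, at 5.68%. Il2rg, the common gamma chain, had 16.0, 17.7, 5.96 and 14.3% H3K27ac coverage, but the regions found in all 4 libraries lay at the promoters of its neighbours Foxo4 and Med12, and its own promoter was called in iMK replicate 2 alone. Il9r likewise took its coverage of 6.11, 6.11, 3.67 and 0% from the promoter of Snrnp25, 4122 bp from its own nearest start or further. Il2rb and Il13ra2 had no peak of either mark.

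Of the common beta chain partners, Il3ra was marked and Il5ra had no peak of either mark. Il3ra, the alpha chain of the IL-3 receptor, had no H3K27ac in ERY and 16.8 and 22.9% in iMK (difference -19.8 ± 2.56 percentage points, adjusted p = 0.0172, limma). Its promoter peaks had folds of 15.8 and 15.5, and further iMK-only regions followed at 2526 to 4325 and 4526 to 5725 bp. H3K4me3 was found in iMK replicate 2 alone, over 7.40%. Csf2rb, the common beta chain with which Il3ra pairs, had 0, 0, 18.3 and 20.0% and passed in the same direction (adjusted p = 0.0065, limma). Csf2rb2, in the same list, had 4.17, 0, 3.24 and 5.09% and did not pass (adjusted p = 0.408, limma).

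In the gp130 and IL-12 group Il6ra, the chain that binds IL-6, was iMK-only at its promoter in both marks. H3K27ac covered 4.63 and 3.18% in ERY and 16.2 and 17.9% in iMK, a difference of -13.2 ± 1.29 percentage points (limma adjusted p = 0.0109). The promoter peaks had folds of 12.8 and 6.83, and in iMK replicate 2 a single peak ran for 10000 bp. The coverage in ERY came from 1 ERY-only region 39596 to 42795 bp inside the gene, where the libraries labelled iMK had none. H3K4me3 at Il6ra was 0, 0, 2.60 and 8.97%.

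The other members of the group did not pass. Il12rb1, the shared chain of the IL-12 and IL-23 receptors, had 3.11, 0, 9.10 and 14.6% (adjusted p = 0.0598, limma). Its iMK coverage in both marks came only from peaks that touch the promoter of Mast3, and its own promoter was called in iMK replicate 2 alone. Il12rb2 was iMK-only at its promoter, with folds of 6.73 and 5.49, yet its coverage of 1.80, 0.461, 1.33 and 1.14% overlapped between cell types. ERY replicate 1 had a peak of 1000 bp inside the gene, and both ERY libraries had a peak past its 3′ end. Il31ra had 5.29, 2.96, 1.48 and 4.45%, with 2 ERY-only regions inside the gene. Il11ra1 had 7.60, 6.26, 9.61 and 8.72%, and the regions found in all 4 libraries included those at the promoters of Rpp25l and Dctn3. Il11ra1 has a near copy, Il11ra2, and reads of the copies may have been divided between them. Il11ra2 and Il23r had no peak, and Il27ra had H3K4me3 in iMK replicate 2 alone, over 3.10%.

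Among the IL-17 receptors, Il17ra, the chain common to the family, was shared at its promoter in both marks. H3K27ac covered 19.9 and 10.8% in ERY and 28.4 and 35.2% in iMK, without overlap, and the difference of -16.5 ± 4.75 percentage points did not pass (adjusted p = 0.0784, limma). iMK-only regions lay at 5754 to 11553 bp, over the second start, and at 12954 to 17153 bp, and an ERY-only region lay at 19554 to 24353 bp. H3K4me3 was 3.16, 2.71, 6.77 and 32.0%. Il17rb, a receptor for IL-25, had 0, 0, 3.05 and 2.73% (-2.89 ± 0.214, limma adjusted p = 0.00771), but its promoter peak is also that of Chdh, and with peaks at promoters of other genes left out the call was lost. Il17rc had 4.41, 0, 3.78 and 5.68%, all from peaks that touch the promoter of Creld1, and its own promoter was not called. Il17rd had H3K4me3 in iMK replicate 2 alone, over 1.13%, and Il17re had no peak.

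**Figure D4:**
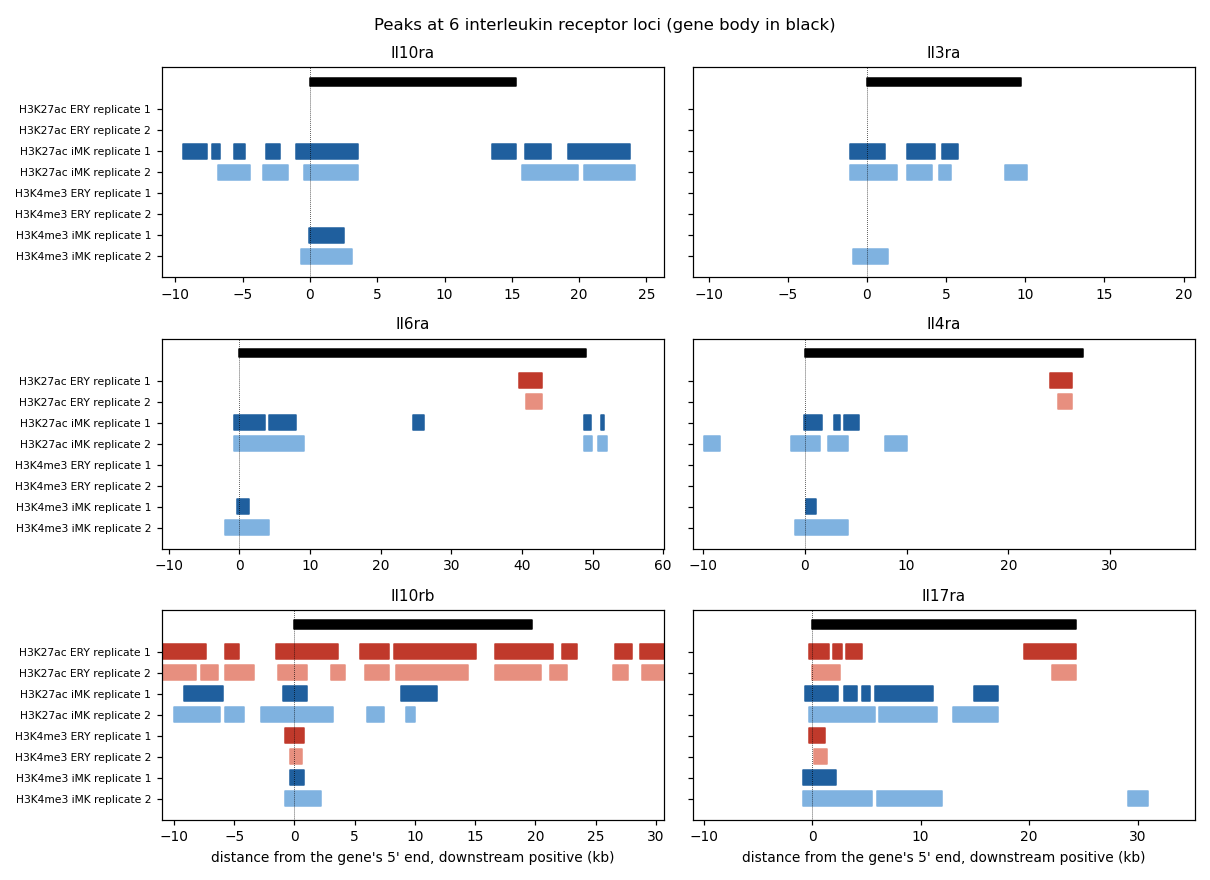
Peaks of both marks in each library (rows; red, ERY; blue, iMK) at 6 loci, by distance from the 5′ end of the gene in kb, with the gene body in black. Il10ra and Il3ra have peaks in the libraries labelled iMK alone, Il6ra and Il4ra have iMK peaks at the start and an ERY peak further in, and Il10rb and Il17ra have a start marked in all libraries with ERY peaks towards the 3′ end.

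**Figure D5:**
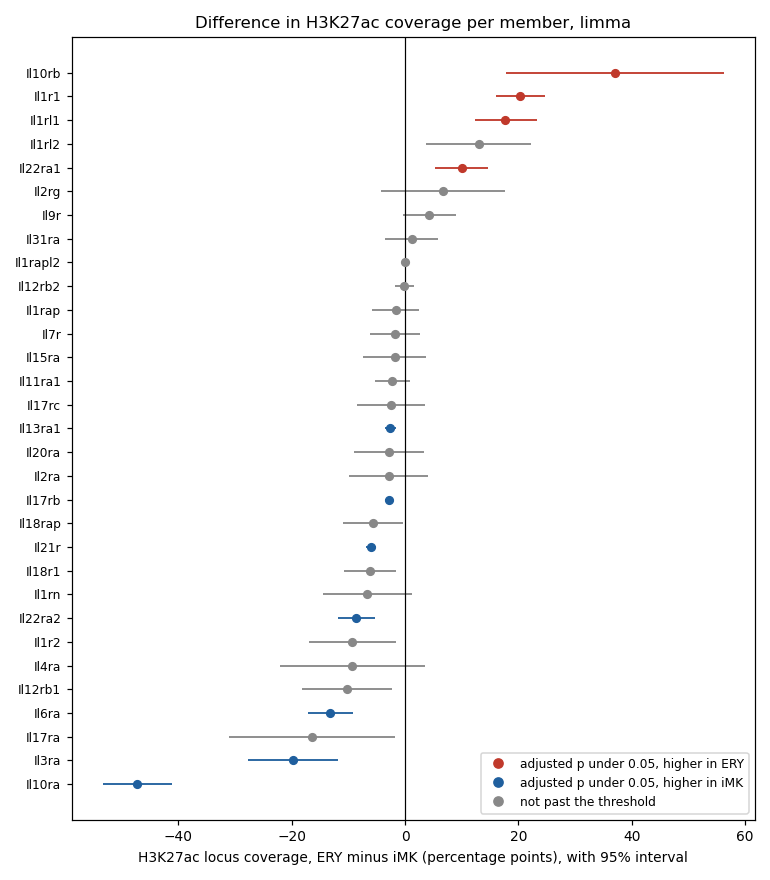
Difference in H3K27ac locus coverage, ERY minus iMK in percentage points, with limma's 95% interval for the 31 members tested (2 libraries per cell type). Red and blue points passed at an adjusted p of 0.05, and the values run from -47.3 for Il10ra to 37.0 for Il10rb.

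H3K4me3 was called at fewer of these promoters. The counts were 5 and 3 of 41 in ERY and 7 and 19 in iMK, where all genes gave 38.6, 28.8, 35.5 and 52.8%. Il1rl1 was ERY-only, Il10ra, Il1rap, Il4ra and Il6ra were iMK-only (4.89% of all genes), and Il10rb and Il17ra were shared (24.6% of all genes). Without iMK replicate 1 the iMK-only count went from 4 to 15. In ERY 7 member promoters had H3K27ac in both libraries, and 3 of these had H3K4me3 in both, where 72.3% of such promoters of all genes did. In iMK the same counts were 15 and 7, against 73.9% over all genes. No member had H3K4me3 in both libraries of a cell type without H3K27ac in both, and over all genes 2.24% of such H3K4me3 promoters in ERY and 1.95% in iMK did. For H3K4me3 locus coverage 26 members and 13561 genes were tested with limma. None passed the threshold, also among all genes (0%), while 2 members, Il10ra and Il12rb1, and 482 genes had an unadjusted p under 0.05. The H3K4me3 coverage of Il12rb1 came only from peaks that touch the promoter of Mast3. Coverage was above 0 at 9, 6, 11 and 25 member loci in ERY replicates 1 and 2 and iMK replicates 1 and 2, and at 46.5, 36.0, 43.6 and 60.1% of all loci. Fits without an iMK library leave 1 library in that group. The spread then comes from the ERY pair alone, and the calls of such fits are not given here.

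Genes that act with these receptors were taken as lists and are given for H3K27ac locus coverage, with the share of all genes above (22.0 and 17.2%) as background. Of 18 shared chains and related receptors outside the symbol rule, 2 were higher in ERY and 7 in iMK. Among those that passed, the largest difference was at Ifngr1, an interferon gamma receptor chain, at 2.09 and 2.61% in ERY against 37.1 and 36.2%. Crlf2 (0, 0, 27.2 and 27.2%) and Csf3r (2.01, 1.5, 21.1 and 35.1%) followed. Next came Epor, the erythropoietin receptor, higher in ERY at 30.1 and 30.1% against 6.50 and 6.50%. Csf3r is also in the neutrophil and monocyte marker list. Of 25 interleukin ligand genes 13 were covered, none was higher in ERY and 7 were higher in iMK, led by Il27 (6.94, 0, 32.4 and 37.0%), Il1b (9.03, 6.02, 19.3 and 26.9%) and Il16 (0, 0, 11.7 and 15.1%). The ligands Il3, Il5, Il6, Il7, Il10 and Il33 had no H3K27ac peak in any library.

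The signalling genes were mostly marked in both cell types. Of 11 JAK and STAT genes, 10 had a shared H3K27ac promoter. Jak1, a kinase of many cytokine receptors, was higher in ERY (35.7 and 30.1% against 5.87 and 8.73%, limma adjusted p = 0.0134), and Stat6, which acts after the IL-4 receptor, was higher in iMK (7.90 and 6.85% against 25.8 and 24.8%, limma adjusted p = 0.00797), as were Stat2 (7.21, 7.21, 12.4 and 12.4%) and Stat4 (0.714, 0.571, 4.57 and 6.57%). Of 10 feedback inhibitors, Cish (62.0 and 56.0% against 21.6 and 28.2%) and Socs4 (27.3 and 30.1% against 12.3 and 13.8%) were higher in ERY, and 3 were higher in iMK, among them Pias1 (2.01, 2.32, 6.33 and 8.03%) and Socs1 (5.15, 5.15, 8.58 and 9.44%). Of 12 adaptors of the IL-1 and IL-17 receptors, 11 had a shared promoter, none was higher in ERY and 5 were higher in iMK, with the largest differences at Ikbkb (5.94, 3.86, 17.2 and 19.0%) and Irak3 (6.71, 3.73, 12.4 and 13.2%).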

How the data were processed

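Peak lists from 8 ChIP-seq libraries were analysed; the 10 input libraries were not used here. The authors called peaks in each library apart. Bowtie 1.0.0, SICER 1.1 and mm10 are named in the submitters' notes, with no role stated, and the study's methods name Bowtie and MACS for ChIP-seq. All peak edges lay on multiples of 200 bp. The authors deposited with every peak a fold (ratio of ChIP over control), a p-value and a q-value, with every q under 0.01. The lists carry no depth and the read numbers in the study's supplementary tables were not used here, so intervals that need depth are not given, and 0% means that no peak was listed. The study's pipeline let reads map to several places.

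Gene models were GENCODE vM21 on GRCm38, which mm10 names, and coordinates are counted from 1. Regions join overlapping peaks of the 4 libraries of a mark. Locus coverage was fitted per mark with limma 3.58.1 (moderated test with trend, ERY minus iMK) in R 4.3.3 over genes covered in at least 1 library, with Benjamini-Hochberg adjustment over all of them and a threshold of 0.05. The script was tested on simulated data. No exact permutation test was run, since its smallest two-sided p with 2 libraries against 2 is 0.333. Separate animals for the replicates are not stated in the labels, and p-values measure the spread between these libraries. Named members are those that passed in either mark or had an ERY-only, iMK-only or shared promoter, and Il7r, with every library's value. Other members with a peak are named with their coverage, and listed genes by largest called difference, up to 4 a list. Csf2rb, Csf2rb2, Itga2b, Pf4, Gp6 and the ligands at 0 were named after their values were seen. Promoter sequences were fixed as up to 4 members of each class by size of the H3K27ac difference, and those with over 30 bases of annotated exon were left out. Members, lists and tests were chosen with earlier results of these data known. Alternatives varied the peak threshold, the number of peaks, the locus, the promoter window, the overlap, the filter and the normalization, and left out each library. A fit without 1 library takes its spread from the complete pair alone, so only its differences are read. Its counts of calls are listed with the other alternatives, and nothing is concluded from them.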

Additional observations from a re-analysis of the deposited data

How the results depend on the processing

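No paired analysis was possible because the labels number no replicates. Of the 41 members, those with higher H3K27ac coverage in ERY numbered 4, against 9 with 50 kb on each side of the gene and 2 with no filter on coverage, and 1 to 3 when each library was left out in turn. Those higher in iMK numbered 7, against 11 with 50 kb and 12 with quantile normalization, and 2 to 14 with a library left out. Il10ra and Il21r passed in every alternative that kept all libraries. In the main fit both had 0% in both ERY libraries and met the coverage filter only through iMK. The iMK libraries of Il21r were also equal, at 5.98%, so neither pair added spread there. Nothing is concluded from the counts of fits with a library left out, because their spread comes from the complete pair alone. With either iMK library left out, that was the ERY pair. In those fits the genes of the whole table higher in ERY went from 3189 to 917 and 927, and without an ERY library those higher in iMK went from 2490 to 756 and 754. For H3K4me3 no member passed, against 0 to 18 higher in iMK with a library left out, and the iMK-only promoters numbered 4, against 4 to 15. Over all genes the H3K4me3 calls went from 0 to 4099 higher in iMK and 20 higher in ERY without iMK replicate 1, to 986 higher in iMK without iMK replicate 2, and to 2 and 1 with no filter. The ERY-only H3K4me3 promoters of all genes went from 83 to 545 with equal numbers of peaks, to 885 without iMK replicate 2 and to 137 without ERY replicate 2, and the iMK-only ones from 1073 to 2348 without ERY replicate 1 and 3259 without iMK replicate 1.

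Some members whose difference had not passed changed sign, in percentage points of H3K27ac coverage. With 50 kb on each side Il12rb2 came to 2.76, Il17ra to 3.30, Il4ra to 1.41 and Il7r to 0.563. Il12rb2 came to 1.21 with quantile normalization and ran from -0.779 to 0.556 with a library left out, and Il15ra came to 4.82 with the gene body alone and ran from -3.88 to 0.204 with a library left out. For H3K4me3, Il10rb came to 0.277 with quantile normalization and ran from -4.29 to 0.252 with a library left out. Il1r1, near 0 in H3K4me3, came to 0.267 with peaks of q at most 1e-05, 0.535 with equal numbers of peaks and also without peaks at promoters of other genes, 0.651 with the gene body alone, 1.84 with quantile normalization, and -1.07 to 0.891 with a library left out. The cause was not tested. Every member that had passed kept its direction.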

Other observations

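At 6 of the 31 members with H3K27ac coverage, Il4ra, Il6ra, Il12rb2, Il15ra, Il17ra and Il20ra, the locus held at least 1 ERY-only and at least 1 iMK-only region. Over all genes tested 943 of 14467 did, 6.52%, where the members' share was 19.4%. The median locus was 50.1 kb for the members tested and 42.3 kb for all genes tested, and 91.9 kb for all genes with both kinds of region. At Il4ra the ERY-only region lay 24081 to 26280 bp from the 5′ end and the iMK-only regions at -1319 to 1680 and 2281 to 5280 bp. At Il15ra the ERY-only region was 2911 to 4910 bp inside the gene and the iMK-only region 32911 to 35910 bp from the 5′ end, past the gene.

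Il9r, the receptor for IL-9, lies 83.2 kb from the alpha globin gene Hba-a1 on chromosome 11. With 50 kb on each side its H3K27ac coverage was 26 and 24% in ERY and 1.60 and 0.532% in iMK, although no peak touched its own promoter. Whether the ERY peaks beside it belong to the globin genes was not tested.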
